A study of Mus musculus with 22 samples.

Results

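Endocannabinoids are lipid messengers of the brain, and their machinery in the anterior cingulate cortex (ACC) is described here through 9 genes, chosen by name from the 37786 genes of the count table. They were Cnr1 and Cnrip1 on the receptor side, Dagla, Daglb and Napepld among the enzymes that make endocannabinoids, and Mgll, Abhd6, Abhd12 and Faah among those that break them down. All 9 passed the filter on low counts (at least 10 counts in at least 10 mice), as did 17524 genes in all. RNA sequencing was done on bulk ACC tissue of 22 wild-type adult male C57BL/6J mice, of which 12 were controls (ctrl, no light) and 10 were stimulated (stim). Every animal carried channelrhodopsin-2 fused to EYFP in the basolateral amygdala (BLA), under the CaMKIIa promoter, which targets mostly excitatory neurons, and had a fiber-optic cannula in the ACC. The stimulated mice received 9 sessions of blue light on BLA axon terminals in the ACC, and controls were handled alike but received no light. Tissue of both hemispheres was taken after the last session. The comparison asked whether repeated activation of the BLA-ACC pathway changed the expression of these genes.

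In cortex, the 2 best-known endocannabinoids are 2-arachidonoylglycerol (2-AG) and anandamide. They are made on demand in the postsynaptic cell, cross the synapse backwards and act on CB1, a Gi/o-coupled receptor on axon terminals that lowers transmitter release. Diacylglycerol lipases make 2-AG and monoacylglycerol lipase removes most of it, with smaller contributions from ABHD6 and ABHD12, whereas NAPE-PLD is one route to anandamide and FAAH hydrolyzes it. In the ACC and other prefrontal areas this signaling has been tied to pain, fear and mood.

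Total counts ranged from 24563116 to 36542883 in controls and from 23090483 to 43668462 in stimulated mice, so that each member was counted between 410 times (Napepld, lowest mouse) and 27877 times (Abhd12, highest mouse) per library. These counts are amplified reads without molecular identifiers, and the errors given below are the spread between mice. Libraries are numbered in the labels, and numbers 1 to 11 (set 1, 6 ctrl and 4 stim) and 12 to 23 (set 2, 6 ctrl and 6 stim) differed strongly, with 11927 of 17524 genes (68.1%) at an adjusted p under 0.05 between the sets. The labels do not say what the sets are, and each group comparison below has the set as a covariate. Excitatory neuron markers of cortex were abundant (a sum of 5 genes between 2813 and 7606 CPM, counts scaled to library size), while 5 markers of striatal projection neurons summed to between 61.2 and 108 CPM. Controls 9 and 11, both of set 2, stood apart in the sum of 6 oligodendrocyte markers, at 19185 and 14146 CPM against 3118 to 6156 CPM in the other 10 controls and 2279 to 5696 CPM in stimulated mice. Results are therefore also given without these mice.

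RefSeq promoter windows (250 bases before to 50 bases after a transcription start, GRCm38.p6) were held for 7 of the 9 members, that is, for all except Dagla and Abhd12. Those of Cnr1, Cnrip1, Napepld and Mgll are printed because, as shown further on, the RNA of the first 3 rose and fell together between mice while that of Mgll went the opposite way. Each window is the one nearest to the annotated 5′ end of the gene, read 5′ to 3′ on the strand of the gene, and lies at chr4:33924394-33924693 (plus) for Cnr1, chr11:17051609-17051908 (plus) for Cnrip1, chr5:21701573-21701872 (minus) for Napepld and chr6:88724162-88724461 (plus) for Mgll. Capitals mark matches, on either strand, to any of 5 short motifs.
Cnr1: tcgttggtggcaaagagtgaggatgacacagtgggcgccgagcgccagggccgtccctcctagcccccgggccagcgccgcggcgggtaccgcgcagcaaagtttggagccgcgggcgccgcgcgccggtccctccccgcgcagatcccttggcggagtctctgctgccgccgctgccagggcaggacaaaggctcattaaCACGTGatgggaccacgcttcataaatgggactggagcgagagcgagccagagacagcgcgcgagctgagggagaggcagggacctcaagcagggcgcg
Cnrip1: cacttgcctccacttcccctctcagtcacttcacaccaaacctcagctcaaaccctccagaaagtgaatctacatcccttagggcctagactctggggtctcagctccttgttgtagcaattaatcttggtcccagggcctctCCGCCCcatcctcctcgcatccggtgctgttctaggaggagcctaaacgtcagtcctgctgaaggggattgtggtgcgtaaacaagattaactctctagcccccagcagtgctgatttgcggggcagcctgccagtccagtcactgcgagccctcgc
Napepld: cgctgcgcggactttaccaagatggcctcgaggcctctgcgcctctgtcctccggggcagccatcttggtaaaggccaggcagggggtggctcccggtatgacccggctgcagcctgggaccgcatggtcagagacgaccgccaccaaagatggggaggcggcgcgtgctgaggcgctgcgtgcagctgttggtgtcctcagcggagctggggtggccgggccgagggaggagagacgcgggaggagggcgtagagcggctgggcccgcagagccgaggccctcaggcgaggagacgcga
Mgll: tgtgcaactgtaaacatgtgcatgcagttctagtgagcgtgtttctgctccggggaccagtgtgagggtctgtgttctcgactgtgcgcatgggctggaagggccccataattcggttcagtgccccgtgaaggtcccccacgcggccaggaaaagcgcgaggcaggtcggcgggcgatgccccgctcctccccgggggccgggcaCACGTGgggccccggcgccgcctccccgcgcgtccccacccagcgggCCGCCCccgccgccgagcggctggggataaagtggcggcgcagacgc
The first motif searched was the cAMP response element, spelled TGACGTCA. A TATA box was taken as TATAAA. The CCAAT box is spelled as it is named, the GC box was GGGCGG, and the E-box was searched as its CACGTG form. No motif of the 5 contains another. The Cnr1 window held 1 E-box, the Cnrip1 window 1 GC box, the Mgll window 1 of each, and the Napepld window none of the 5. Over the 32544 promoter windows of the table, 7.17% held this E-box, 35.9% the GC box, 37.4% the CCAAT box, 13.6% the TATA box and 1.8% the cAMP response element. The 3 promoters whose genes moved together thus shared no motif among these 5. Of the windows not printed, that of Abhd6 held 1 CCAAT box and 1 GC box, that of Faah 2 GC boxes, and that of Daglb none.

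After stimulation, 0 of the 9 members passed an adjusted p of 0.05 by edgeR, and the background was 0% of the 17524 genes by the same test, against 2016 genes (11.5%) at an unadjusted p under 0.05. The DESeq2 Wald test and limma voom also called 0 members after adjustment, beside 33 genes and 1 gene in all. Abhd6 was the 1 member of 9 past the unadjusted threshold, on the higher side, where 1061 genes (6.05%) lay. On the log2 scale, the fitted differences of all 9 members were above 0, from 0.01 for Abhd12 to 0.16 for Cnrip1, with a median of 0.09, whereas 52.6% of all genes tested were above 0 and their median was 0.01. Without controls 9 and 11, 7 of 9 were above 0 with a median of 0.05, and in set 1 alone 5 of 9 with a median of 0.03. These differences correspond to increases of at most 11.6% and are smaller than the spread between mice for most members. In bulk tissue, fewer cells of a type and less RNA per cell cannot be told apart, and this holds for every value below.

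**Figure D1:**
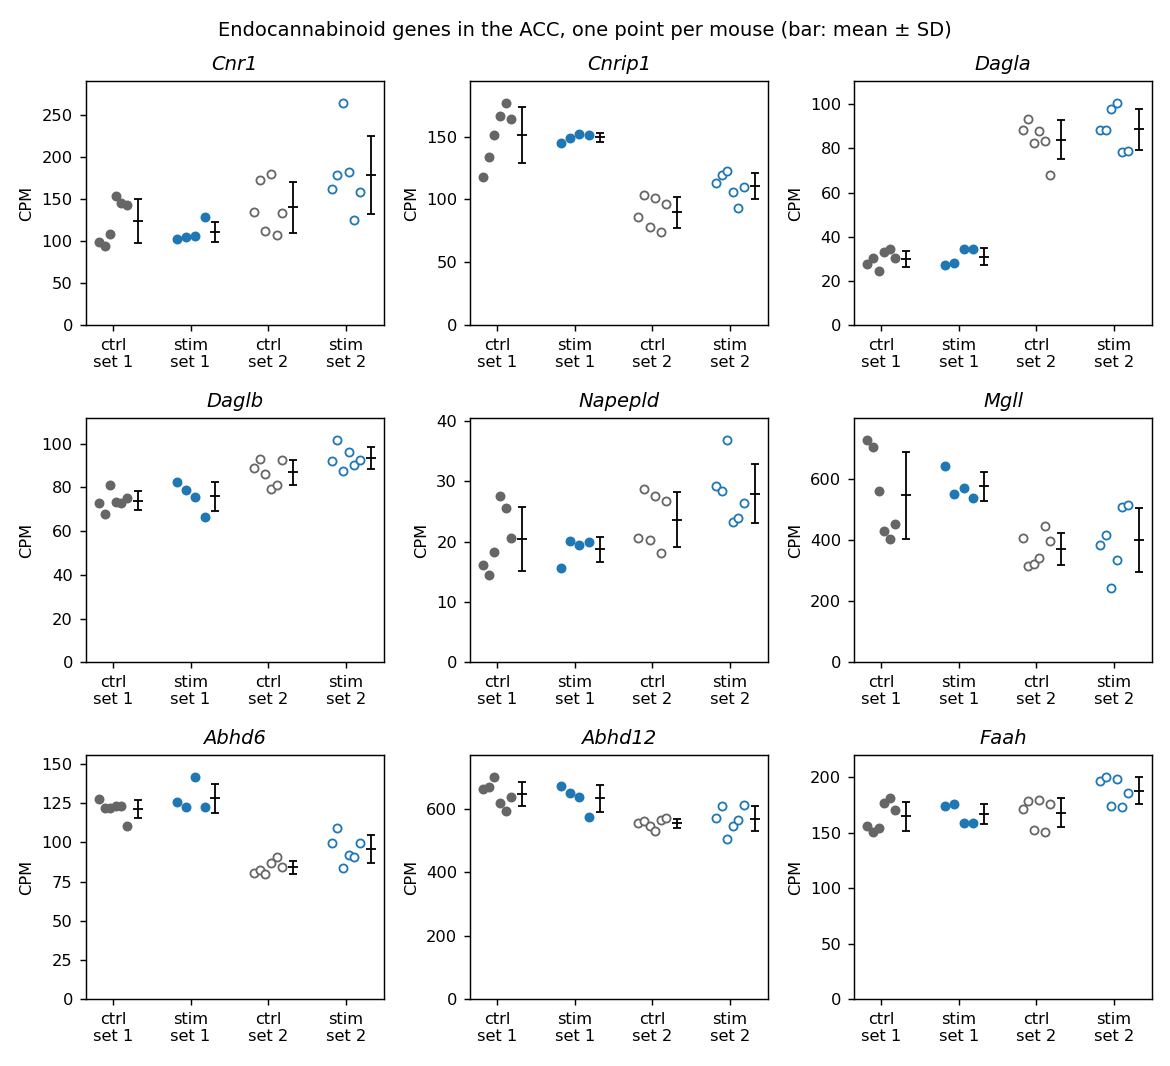
Expression of the 9 members in CPM (y axis, from 0), one point per mouse, split by group and library set (gray, ctrl; blue, stim; filled, set 1; open, set 2), with the mean ± SD beside each group of 4 to 6 mice. The groups overlap for every member within each set, while Dagla and Abhd6 do not overlap between sets. Between sets 68.1% of all genes differed at an adjusted p under 0.05, and the share without overlap was not determined.

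CB1 itself is encoded by Cnr1 (ENSMUSG00000044288, GRCm38 chr4:33924593-33948831, plus strand). In controls its level was 94.2 CPM at the lowest, 135 at the median and 180 at the highest, and in stimulated mice 103, 143 and 264. The ranges overlapped, and 5 of 10 stimulated mice were above the control median. The log2 fold change was 0.12 ± 0.13 (SE; adjusted p = 0.733), with a 95% interval from 0.91-fold to 1.31-fold. Without stimulated mouse 7 it was 0.03, and leaving out each mouse in turn gave values up to 0.16. Within set 1 the 4 stimulated mice were at 103, 104, 106 and 128 CPM, of which 1 was above the control median of 126 (control range 94.2 to 154). Within set 2 they lay at 126, 171 and 264 CPM (lowest, median and highest), against 107, 135 and 180 in controls, so that 5 of 6 were above the control median there. The log2 fold change was accordingly -0.16 ± 0.15 (SE) in set 1 and 0.32 ± 0.16 in set 2. The difference between these effects was 0.52 ± 0.24 (interaction term of the edgeR fit, unadjusted p = 0.0404, adjusted p = 0.607), where 8.01% of all genes were past the unadjusted threshold. Without controls 9 and 11 the overall log2 fold change of Cnr1 was 0.01, and the difference between sets was 0.34 (unadjusted p = 0.179).

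The receptor's partner Cnrip1 (ENSMUSG00000044629, chr11:17051586-17079371, plus strand), which binds the C-terminal tail of CB1, ranged from 73.7 CPM in controls over a median of 111 to a highest value of 176. Stimulated mice ranged from 93.3 to 152 CPM around a median of 121, entirely within the control range. Its fitted difference was 0.16 ± 0.08 (SE; adjusted p = 0.448), and 0.07 without controls 9 and 11. In set 1 the stimulated mice were tightly grouped, at 145, 149, 152 and 151 CPM, inside a control range of 118 to 176. In set 2 all 6 stimulated mice, at 93.3 to 122 CPM, were above the control median of 91.0 (control range 73.7 to 104). The log2 fold change was -0.01 ± 0.11 in set 1 and 0.27 ± 0.10 in set 2 (unadjusted p = 0.0122, adjusted p = 0.301). Set 2 alone thus had 2 members of 9 at an unadjusted p under 0.05 (Cnrip1 and Abhd6, 12.4% of all genes) and set 1 alone had 0 of 9 (5.56% of all genes). The difference of the Cnrip1 effect between sets was 0.32 ± 0.15 (unadjusted p = 0.0375, adjusted p = 0.607), and 0.18 without controls 9 and 11 (unadjusted p = 0.220). For the remaining 7 members the unadjusted p of that interaction was 0.121 or higher. Of the exonic bases of Cnrip1, 4.97% also belong to Plek on the opposite strand, and the strand setting of the counting is not given in the sources used here.

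**Figure D2:**
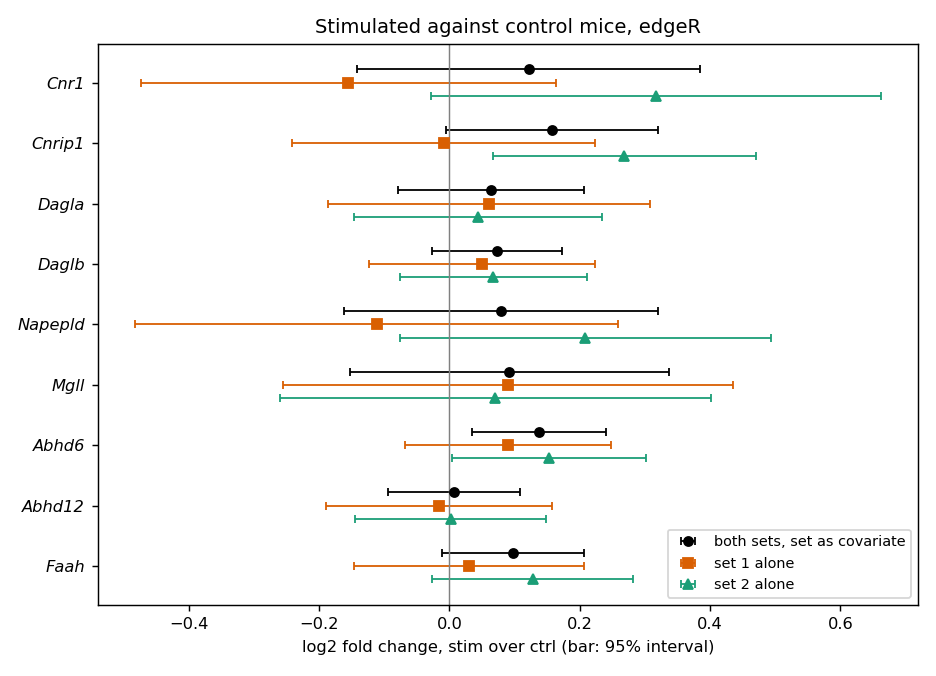
Log2 fold change of stimulated over control mice (x axis) for each member, with 95% intervals, from all mice with the library set as covariate (black), from set 1 alone (orange) and from set 2 alone (green). In the fit of all mice, the interval of Abhd6 (0.04 to 0.24) is the one that excludes 0, and Cnr1, Cnrip1, Napepld and Abhd12 are below 0 in set 1 and above 0 in set 2.

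Among the synthesis enzymes, Dagla (ENSMUSG00000035735, chr19:10245265-10304877, minus strand), the main diacylglycerol lipase of neurons and the source of synaptic 2-AG, was the member that differed most between the library sets. In set 1 it was between 24.3 and 34.6 CPM and in set 2 between 68.1 and 100 CPM, with no overlap, a 2.82-fold difference (adjusted p = 4.26e-15). How many of all genes showed no overlap between sets was not determined. Stimulated mice of set 1 were at 27.3, 27.9, 34.6 and 34.3 CPM against 24.3 to 34.3 in controls. In set 2 they ranged from 78.1 to 100 CPM against 68.1 to 93.3. Between groups the log2 fold change was 0.06 ± 0.07 (SE; adjusted p = 0.740) and was 0.06 in set 1 and 0.04 in set 2. It lay between 0.03 (without control 12) and 0.09 (without stimulated mouse 1) when each mouse was left out, and was 0.20 with group as the only term and 0.32 with the replicate block. The difference between treatment groups was therefore small beside that between sets, as the plot of values by mouse shows.

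Its paralog Daglb (ENSMUSG00000039206, chr5:143464584-143505942, plus strand), which serves mainly microglia and peripheral cells, was between 68.0 and 93.2 CPM in controls (median 80.3) and between 66.7 and 102 in stimulated mice (median 88.8). Above the control median over both sets lay 7 of 10 stimulated mice. Within sets, 3 of 4 in set 1 and 5 of 6 in set 2 lay above the control median of their set. The log2 fold change was 0.07 ± 0.05 (adjusted p = 0.557). For Daglb, 2309 of 9567 exonic bases (24.1%) overlap Rac1 on the opposite strand. Napepld (ENSMUSG00000044968, chr5:21662901-21701396, minus strand), a phospholipase that releases anandamide and related amides, was the least abundant member. Controls lay between 14.4 and 28.7 CPM (median 20.7) and stimulated mice between 15.7 and 36.8 CPM (median 23.6), and most of either range was shared. Its log2 fold change of 0.08 ± 0.12 (adjusted p = 0.823) was -0.11 in set 1, 0.21 in set 2 and -0.02 without controls 9 and 11, and it ranged from 0.02 (without stimulated mouse 7) to 0.13 (without control 4) when each mouse was left out.

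Of the enzymes that break down 2-AG, Abhd6 (ENSMUSG00000025277, chr14:8002902-8056763, plus strand), a postsynaptic serine hydrolase, had the smallest p of the 9 members. Controls of set 1 were at 110 CPM (lowest), 123 (median) and 128 (highest), and the 4 stimulated mice at 126, 122, 141 and 123 CPM. In set 2 controls were at 80.0, 83.5 and 90.6 CPM, and stimulated mice at 83.8, 95.8 and 109. All 6 stimulated mice of set 2 were above the control median there, and 2 of 4 were in set 1, with overlapping ranges in both. The log2 fold change was 0.14 ± 0.05 (SE; unadjusted p = 0.0104), or 10.0% higher in stimulated mice, with an interval from 1.02-fold to 1.18-fold. After adjustment over all genes p was 0.349, and Abhd6 ranked at position 501 of 17524. With group as the only term it was 0.08 (unadjusted p = 0.490), and with the replicate block and the set it was 0.10 (unadjusted p = 0.109). Abhd6 was 0.717-fold as high in set 2 as in set 1, with no overlap between the sets (the share of all genes without overlap was not determined). Without controls 9 and 11 the log2 fold change was 0.13 (unadjusted p = 0.0196, adjusted p = 0.627).

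Mgll (ENSMUSG00000033174, chr6:88724412-88828360, plus strand) encodes monoacylglycerol lipase, the main enzyme of 2-AG breakdown. Its lowest, median and highest values were 313, 418 and 726 CPM without stimulation and 241, 511 and 643 CPM with it, and the lowest and the highest values thus fell in opposite groups. Within sets, the medians of control and stimulated mice were 506 and 560 CPM in set 1 and 370 and 400 CPM in set 2. The log2 fold change was 0.09 ± 0.12 (adjusted p = 0.790), between 0.05 without stimulated mouse 10 and 0.15 without stimulated mouse 7. With the share of counts on mitochondrial genes as a further covariate it was 0.24 ± 0.08 (unadjusted p = 0.00956, adjusted p = 0.387). Abhd12 (ENSMUSG00000032046, chr2:150832493-150904741, minus strand), a lipase that also hydrolyzes lysophosphatidylserine, was between 531 and 698 CPM in controls (median 583) and between 505 and 673 in stimulated mice (median 591). Its log2 fold change was 0.01 ± 0.05 (adjusted p = 0.971), and the 95% interval from 0.937-fold to 1.08-fold was among the narrowest of the 9. Finally, Faah (ENSMUSG00000034171, chr4:115967145-116017926, minus strand), the hydrolase of anandamide, was between 151 and 181 CPM in controls (median 171) and between 159 and 200 in stimulated mice (median 175). For Faah, 8 of 10 stimulated mice were above the control median over both sets. Within sets, 2 of 4 in set 1 and 5 of 6 in set 2 were above the control median of their set. The log2 fold change was 0.10 ± 0.05 (adjusted p = 0.482).

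Markers of other cells were compared in the same fit, and none passed adjustment. All 6 oligodendrocyte markers were lower in stimulated mice at an unadjusted p under 0.05 (5.45% of all genes were lower at that threshold; smallest adjusted p = 0.332), with a median log2 fold change of -0.71. Without controls 9 and 11, 0 of the 6 passed, with a median of -0.15. On that reduced set of mice the log2 fold change was 0.04 for Faah, 0.05 for Daglb, 0.05 for Dagla, 0.09 for Mgll and -0.01 for Abhd12. Slc32a1 from the GABAergic list and Cck from the list of CCK-positive and related interneurons were higher at an unadjusted p under 0.05. Their log2 fold changes were 0.31 and 0.26 (edgeR, adjusted p = 0.329 for both), and the cells from which this Cck RNA came were not determined. They were 1 of 3 GABAergic markers, of which 3 were above 0 with a median of 0.10, and 1 of 6 markers of CCK-positive and related interneurons, of which 4 were above 0 and 2 below with a median of 0.04 (0.0099 without controls 9 and 11). For 5 glutamatergic markers the median was 0.08 in all mice and -0.00031 without these controls, and for 6 astrocyte markers -0.14 and -0.16. Among the glutamatergic markers, Slc17a7 was higher at an unadjusted p under 0.05 (log2 fold change 0.16, edgeR, adjusted p = 0.363), while 3 of the 5 were above 0 and 2 below, and 0 of 5 passed without controls 9 and 11. Choroid plexus markers (2 of 3 tested) summed to between 3.53 and 132 CPM in controls and between 4.71 and 16.2 CPM in stimulated mice. The highest sums were those of control 3 at 132 CPM and control 12 at 42.8 CPM, followed by control 9 at 24.3 CPM. Of the 2 markers, 1 was lower at an unadjusted p under 0.05, with a median log2 fold change of -1.04. It was -1.02, and again 1 of 2 passed, without controls 9 and 11, which leaves the 2 highest controls in. In that fit 1 GABAergic and 1 interneuron marker also passed. What part these markers have in the values of the members was not tested.

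Per length of exon, the members spanned a wide range of levels. In RPKM, the CPM divided by kilobases of merged exons (mean ± SD over all 22 mice), Abhd12 was highest at 212 ± 18.5, followed by Mgll at 91.3 ± 25.1, Abhd6 at 44.6 ± 8.11 and Cnrip1 at 30.7 ± 7.53. Lower down came Faah at 22.0 ± 1.91, Cnr1 at 21.9 ± 6.18, Dagla at 10.6 ± 5.09, Daglb at 8.69 ± 1.0 and Napepld at 5.84 ± 1.39. Breakdown enzymes of 2-AG therefore held the top of the order, and all 3 synthesis enzymes the bottom. Abhd12 was above 99.2% of the genes tested on this scale, Mgll above 97.3%, Cnr1 above 85.4% and Napepld above 60.7%. Only the range of Abhd12 was clear of its neighbor in the order over all mice, although Mgll was above Abhd6, and Abhd6 above Cnrip1, within each of the 22 mice. Faah and Cnr1 did not differ beyond their spread, with Faah higher in 13 of 22 mice. Dagla was above Daglb in 12 of 22 mice, which were the 12 mice of set 2.

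**Figure D3:**
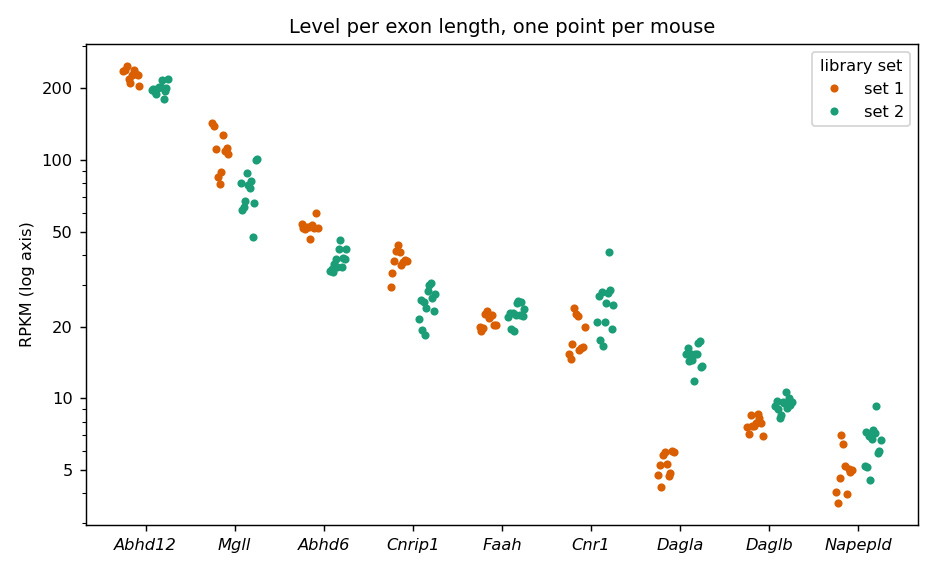
Level of each member in RPKM (y axis, logarithmic), one point per mouse, members in order of their mean over 22 mice, orange for library set 1 and green for set 2. Dagla moves from below Daglb in set 1 (mean 5.29 against 7.81 RPKM) to above it in set 2 (15.0 against 9.42 RPKM), without overlap in either set.

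Between library sets, 8 of the 9 members differed at an adjusted p under 0.05, beside 68.1% of all genes. Higher in set 2 were Dagla (2.82-fold), Cnr1 (1.32-fold), Napepld (1.29-fold) and Daglb (1.20-fold), and Faah was at 1.07-fold (adjusted p = 0.133). Lower in set 2 were Cnrip1 (0.653-fold), Mgll (0.687-fold), Abhd6 (0.717-fold) and Abhd12 (0.875-fold). Synthesis enzymes and the receptor were thus higher, and breakdown enzymes of 2-AG lower, in set 2. The share of mitochondrial counts was between 1.63% and 4.81% in set 1 and between 0.982% and 1.90% in set 2, and the sum of glutamatergic markers was between 2813 and 3663 CPM in set 1 and between 4590 and 7606 CPM in set 2. Their part in these differences was not tested. Between mice of 1 set, the coefficient of variation was highest for Cnr1 (18.6% in set 1 and 26.6% in set 2), Mgll (19.8% and 20.9%) and Napepld (21.1% and 19.5%). It was 11.9% and 10.3% for Dagla, 6.72% and 8.93% for Faah, and 5.96% and 5.29% for Abhd12. Over all 22 mice it reached 48.1% for Dagla, where the difference between sets is included.

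The balance of synthesis and breakdown was compared through the ratio of 2 counts in the same mouse, which needs no scaling between libraries. For Mgll over Dagla, the log2 ratio of counts averaged 3.15 ± 1.12 in the 12 controls and 2.97 ± 1.16 (SD) in the 10 stimulated mice. With labels exchanged within sets the difference was 0.03 (two-sided permutation test, p = 0.890). It was 0.06 within set 1 (exact permutation test, p = 0.805) and -0.01 within set 2 (exact, p = 0.974). The ratio followed the sets, at 4.18 ± 0.41 (SD, n = 10) in set 1 and 2.14 ± 0.42 (SD, n = 12) in set 2, with no overlap. For anandamide, the log2 ratio of Faah to Napepld averaged 2.95 ± 0.24 in the 12 controls and 2.92 ± 0.32 (SD) in the 10 stimulated mice, a difference of 0.0031 within sets (two-sided permutation test, p = 0.977). Neither difference was larger than the spread between mice.

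Many members varied together from mouse to mouse, as did many other genes. With the mean of each group and set removed from log2 CPM, 16 of the 36 pairs were correlated at an adjusted p under 0.05 over the 22 mice (two-sided permutation test of Pearson's r, 100000 resamples within groups and sets), 9 positively and 7 negatively, and 14 pairs by Spearman's rho. An absolute r of at least 0.5 was reached by 16 of the 36 pairs (44.4%) and by 15.7% of all pairs of genes tested, a comparison added after the data had been seen. Against all 17523 other genes, Mgll reached it with 40.7%, Cnr1 with 36.5%, Cnrip1 with 34.3%, Napepld with 33.3%, Dagla with 22.3%, Abhd12 with 20.9%, Faah with 16.3%, Abhd6 with 4.67% and Daglb with 4.13%. Cnr1, Cnrip1 and Napepld formed the closest group. Cnr1 and Cnrip1 were correlated at r = 0.85 (permutation p = 4e-05, adjusted p = 0.00072) and rho = 0.85 (permutation p = 0.00011, adjusted p = 0.00198), with r = 0.85 in set 1, 0.86 in set 2 and 0.86 without the 2 mice farthest from the median of Cnr1. Cnr1 and Napepld gave r = 0.84 (permutation p = 9e-05, adjusted p = 0.00081) and rho = 0.81 (permutation p = 0.00018, adjusted p = 0.00216), with 0.89 and 0.82 in the 2 sets. Cnrip1 and Napepld gave r = 0.87 (permutation p = 3e-05, adjusted p = 0.00072) and rho = 0.90 (permutation p = 1e-05, the smallest these resamples can give, adjusted p = 0.00036), with 0.83 and 0.91. A receptor, its partner and an anandamide-producing enzyme thus rose and fell together in both sets. All 3 ran against the share of mitochondrial counts, at r = -0.59 for Cnr1 (rho = -0.61, permutation test, adjusted p = 0.0251), -0.63 for Cnrip1 (rho = -0.59, adjusted p = 0.0316) and -0.66 for Napepld (rho = -0.57, adjusted p = 0.0316). These values were -0.91, -0.92 and -0.88 in set 1 and -0.35, -0.22 and -0.25 in set 2, and the part of that share in the correlations was not tested.

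Mgll went the other way. It was correlated with Cnr1 at r = -0.83 (permutation p = 8e-05, adjusted p = 0.00081) and rho = -0.80 (permutation p = 0.00038, adjusted p = 0.00342), at -0.94 in set 1, -0.77 in set 2 and -0.80 without the 2 mice farthest from the median of Cnr1. In controls 1 and 2 Mgll was at 726 and 704 CPM and Cnr1 at 99.0 and 94.2 CPM, and these mice also had the highest mitochondrial shares (4.41% and 4.81%), while stimulated mouse 7 had the lowest Mgll of all (241 CPM) and the highest Cnr1 (264 CPM). Further negative values for Mgll were r = -0.74 with Napepld (rho = -0.73, permutation test, adjusted p = 0.00384), -0.69 with Cnrip1 (rho = -0.71, adjusted p = 0.00774) and -0.61 with Dagla (rho = -0.66, adjusted p = 0.0117). With Abhd12, which shares its role in 2-AG breakdown, r was 0.73 (rho = 0.73, permutation test, adjusted p = 0.00442). These 4 values were -0.69, -0.60, -0.70 and 0.65 without the 2 mice farthest from the median of Napepld, Cnrip1, Dagla and Mgll, respectively. Faah varied with Cnrip1 (r = 0.70, rho = 0.69, permutation test, adjusted p = 0.00888) and with Cnr1 (r = 0.54, rho = 0.69, permutation test, adjusted p = 0.0497), the latter at 0.93 in controls and -0.13 in stimulated mice, a difference that was not tested. Both were lost without controls 9 and 11, at 0.56 with Cnrip1 (permutation test, adjusted p = 0.0981) and 0.39 with Cnr1 (permutation test, adjusted p = 0.238). By contrast, Abhd6 reached the threshold with 0 of the other 8 members and Daglb with 1. Leaving out controls 9 and 11 lowered the number of pairs past the threshold from 16 to 12 (also lost were Napepld with Faah and Napepld with Abhd12), and Cnr1 then gave 0.81 with Cnrip1, 0.80 with Napepld and -0.92 with Mgll. The pair of Cnrip1 and Mgll gave -0.95 in set 1 and -0.49 in set 2.

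**Figure D4:**
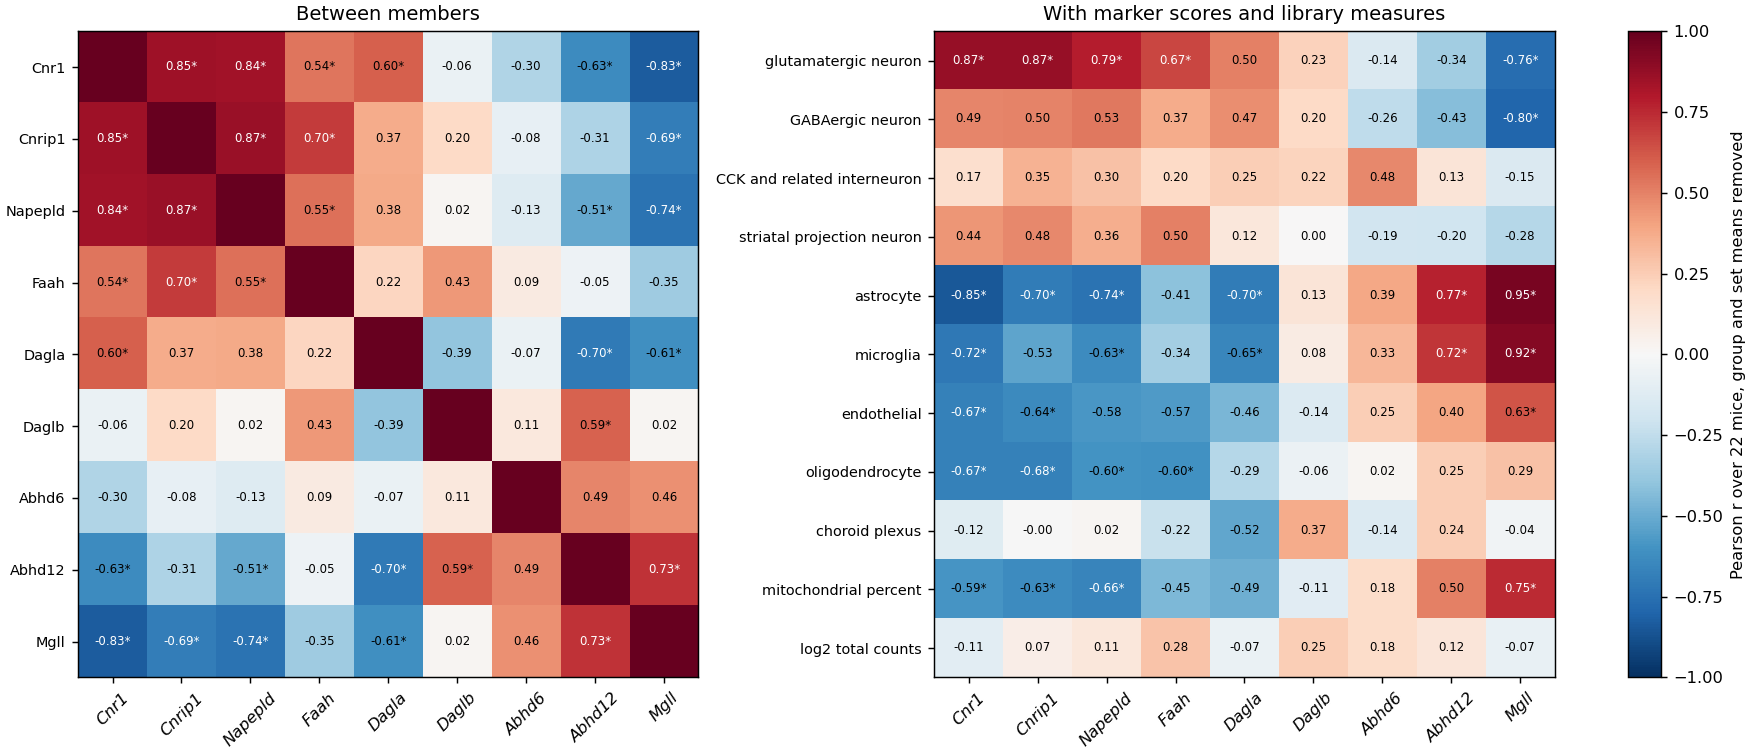
Pearson's r over 22 mice, with group and set means removed, between the members (left) and of each member with 9 marker scores, the mitochondrial share and the log2 total count (right), red for positive and blue for negative values, an asterisk marking an adjusted p under 0.05. Cnr1, Cnrip1 and Napepld form a red block with r from 0.84 to 0.87, and the Mgll column is the reverse of theirs, reaching 0.95 with astrocyte markers.

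The same deviations were set against 9 marker scores (the mean centered log2 CPM of each list), the mitochondrial share and the log2 total count, in 99 comparisons of which 28 had an adjusted p under 0.05. These scores share libraries with the members and were added after the data had been seen. The share of all genes past that threshold with these measures was not determined, so whether the count is particular to the members is not known. Mgll followed the 6 astrocyte markers most closely, at r = 0.95 (permutation p = 1e-05, adjusted p = 0.00033) and rho = 0.95 (permutation p = 1e-05, adjusted p = 0.000495), both at the smallest p the resamples can give, with 0.96 in set 1, 0.98 in set 2 and 0.94 without the 2 mice farthest from the median of the score. All 6 single markers gave positive values, between 0.83 and 0.97. Mgll also followed 5 microglia markers (r = 0.92, permutation test, adjusted p = 0.000396) and the mitochondrial share (r = 0.75, permutation test, adjusted p = 0.00033). Abhd12 followed the astrocyte score at r = 0.77 (permutation test, adjusted p = 0.00416), and Cnr1 ran against it at -0.85 (permutation test, adjusted p = 0.00033). With the oligodendrocyte score, r was -0.67 for Cnr1 (adjusted p = 0.00437), -0.68 for Cnrip1 (0.00687), -0.60 for Napepld (0.00687) and -0.60 for Faah (0.0354; permutation tests). Without controls 9 and 11 these were -0.73, -0.56, -0.63 and -0.28. The other members did not pass with that score. Daglb and Abhd6 were correlated with 0 of the 11 measures at an adjusted p under 0.05.

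With the glutamatergic score, r was 0.87 for Cnr1 (permutation p = 2e-05, adjusted p = 0.000396; rho = 0.84, permutation p = 0.00011, adjusted p = 0.00156), 0.87 for Cnrip1 (adjusted p = 0.000495), 0.79 for Napepld (adjusted p = 0.00416) and 0.67 for Faah (adjusted p = 0.0158; permutation tests). In both sets the value for Cnr1 was similar, 0.89 and 0.87, and it was 0.85 without controls 9 and 11. The 5 markers of that list did not act alike, however. Cnr1 was correlated at 0.86 with Neurod6, 0.71 with Tbr1 and 0.67 with Slc17a7, but at -0.59 with Camk2a. With the summed CPM of the 5 in place of the score, r was -0.34 for Cnr1, -0.24 for Cnrip1, -0.36 for Napepld, 0.07 for Faah and 0.74 for Mgll. Mgll showed the mirror image, with 0.90 for Camk2a, -0.87 for Neurod6, -0.86 for Tbr1 and -0.48 for Slc17a7. Camk2a encodes a kinase subunit whose RNA is carried into dendrites, while Neurod6 and Tbr1 encode transcription factors of cortical excitatory neurons. With the 3 GABAergic markers, Mgll gave r = -0.80 (permutation test, adjusted p = 0.00198) and Cnr1 0.49 (permutation test, adjusted p = 0.109), and with 6 markers of CCK-positive and related interneurons, the cells with the most CB1 in cortex, Cnr1 gave 0.17 (permutation test, adjusted p = 0.595).

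**Figure D5:**
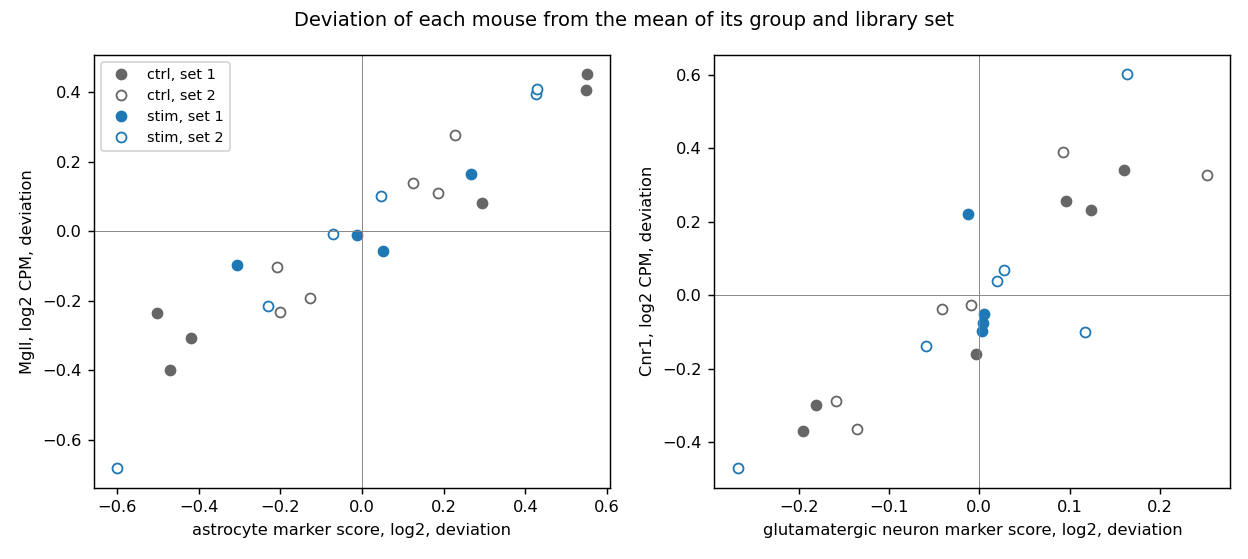
Deviation of each mouse from the mean of its group and set, in log2 CPM, for Mgll against the score of 6 astrocyte markers (left) and for Cnr1 against the score of 5 glutamatergic neuron markers (right), gray for ctrl, blue for stim, filled for set 1 and open for set 2. For Mgll (r = 0.95), stimulated and control mice of both sets are spread along the relation. For Cnr1 (r = 0.87), the stimulated mice of set 1 lie close together on the score, between -0.013 and 0.0054, and the other mice are spread.

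Among all 17523 other genes tested, some of those nearest to each member by the same measure are given as a description. Nearest to Cnr1 were Dmxl2 (r = 0.96), Col25a1 (0.93) and Grb10 (0.93), and near Cnrip1 were Pnma2 (0.96) and Pnmal1 (0.93). Napepld had Samd8 (0.93) and Impact (0.92). For Mgll they were Slc25a18 (0.99), Apoe (0.98) and Gstm1 (0.98), of which Apoe is an apolipoprotein made chiefly by astrocytes in the healthy brain. Faah was nearest to Pnma1 (0.86), Rgs14 (0.83) and Entpd6 (0.82), Dagla to Usp13 (0.86) and Mkl2 (0.85), and Abhd12 to Suds3 (0.89), Haus1 (0.89) and R3hdm4 (0.88). The closest values were lower for Daglb, with Gm42902 (0.84), Tmf1 (0.74) and Cep83 (0.73), and for Abhd6, with Pop5 (0.79) and Rpl23 (0.79).

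Beyond the 9 members, a list of 39 further genes of the pathway was examined, of which 33 passed the count filter. By edgeR, 0 of the 33 passed an adjusted p of 0.05 (0 also by the DESeq2 Wald test and limma voom), and 2 were higher at an unadjusted p under 0.05, where 6.05% of all genes lay. Fabp3, a fatty acid binding protein that can carry anandamide inside cells, was between 34.7 and 42.0 CPM in controls of set 1 (median 40.4) and between 40.6 and 49.2 in stimulated mice (median 44.4). In set 2 it was between 18.5 and 23.4 CPM (median 19.7) and between 18.0 and 24.9 CPM (median 24.3). The ranges overlapped in both sets, and the log2 fold change was 0.17 ± 0.06 (SE; unadjusted p = 0.0130, adjusted p = 0.353). Gde1, a glycerophosphodiesterase of a second route to anandamide, gave 0.14 ± 0.06 (unadjusted p = 0.0204, adjusted p = 0.364), at medians of 463 CPM in controls and 470 in stimulated mice of set 1, and 324 and 367 CPM in set 2. Over the list, 19 genes were above 0 and 14 below, with a median log2 fold change of 0.04. By role, 2 of 4 tested receptors for endocannabinoids and related lipids were above 0, 5 of 8 CB1 partners and G protein subunits, 6 of 11 other synthesis enzymes, 1 of 3 other breakdown and oxidation enzymes, 3 of 3 lipid carriers and 2 of 4 Gq-coupled receptors upstream of synthesis.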

How the data were processed

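RNA of bulk ACC (5 ng of total RNA, SMART-Seq v4 amplification of full-length cDNA, single-end reads) was sequenced from 22 mice. The authors removed adapters (cutadapt 1.10), mapped reads to mm10 (STAR 2.5.3a) and assigned unique alignments to Ensembl genes (HTSeq 0.6.1p1). They deposited whole-number counts without normalization, counts divided by size factors (a normalized signal that keeps no depth, not tested here), and columns of their own DESeq2 1.22.1 comparison, which were not used.

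Groups, replicates and library numbers came from the labels. Counts were analyzed with edgeR 4.0.16 (R 4.3.3; TMM, quasi-likelihood test, terms for library set and group) on the 17524 genes that reached 10 counts in 10 or more mice, and p-values were adjusted over all of them by the Benjamini-Hochberg method. The study's methods used batch and RNA integrity as covariates. The labels give neither, so the library set was used in their place, and the group-only fit is an alternative. CPM were TMM-scaled, RPKM used merged exons of GENCODE M21 (37772 of 37786 genes matched), and log2 CPM used a prior count of 2. Alternatives were DESeq2 1.42.0, limma 3.58.1 voom with sample quality weights, sva 3.50.0, other filters, a replicate block and leaving out mice. The genes named were the 9 members, genes of the wider list at an unadjusted p under 0.05, the 3 nearest genes of each member and, chosen after their values were seen, the single glutamatergic markers. Some of the nearest genes and markers are not reported here. Replicate numbers are shared by 10 mice per group, but same-numbered mice are different animals. Their deviations correlated at 0.308 on average with group means removed (from -0.367 to 0.635) and at 0.0511 with group and set means removed (from -0.133 to 0.268). As some pairs were under 0.1 either way, the numbers were not taken as pairs. No libraries agreed within sampling noise (smallest mean chi-square per gene over 231 pairs 9.95). The members, lists and tests were chosen with earlier results of these data known. Of the count tests, edgeR alone was run on simulated counts with known changes, and the outcome is not reported here.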

Additional observations from a re-analysis of the deposited data

Results flagged for a closer look

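Within groups of 4 to 10 mice, a mouse was marked when its gap to the nearest other mouse took up an unusually large part of the range (Dixon's 95% critical value), which chance does in about 1 in 20 groups. Of 45 combinations of member and group, some of which share mice, 4 were marked. Stimulated mouse 7 was at 264 CPM for Cnr1, with the next of the 10 stimulated mice at 183 CPM. It was not marked among the 6 stimulated mice of set 2 alone. Stimulated mouse 4 was at 128 CPM for Cnr1, with the next of the 4 stimulated mice of set 1 at 106 CPM. Stimulated mouse 1 was at 15.7 CPM for Napepld, with the next of the same 4 mice at 19.4 CPM. Control 6 was at 110 CPM for Abhd6, with the next of the 6 controls of set 1 at 122 CPM.

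The effect of stimulation on Cnr1 and Cnrip1 differed between the library sets before adjustment, by 0.52 for Cnr1 and 0.32 for Cnrip1 on the log2 scale (edgeR, adjusted p = 0.607 for both). At an unadjusted p under 0.05 the share of all genes was 8.01%.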

How the results depend on the processing

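No member reached an adjusted p under 0.05 in any of the 36 fits (smallest 0.159, limma voom). The number at an unadjusted p under 0.05 was 1 with all mice and the set term, 0 with group only, 0 with the replicate block, 0 in set 1 alone, 2 with limma voom, 2 without a count minimum, 2 with the mitochondrial share, 2 in set 2 alone and 3 with 1 surrogate variable. Leaving out each mouse in turn gave 1 to 3, with 2 without control 4, 6 or 8 or stimulated mouse 1, 2, 4 or 9 and 3 without control 5. Abhd6 stayed under 0.05 in 32 of the 36 fits, and not with group only, with the replicate block, with block and set (where 1 member, Cnrip1, passed) or in set 1 alone. Over all genes the share at an unadjusted p under 0.05 was 11.5% (2016 genes), 3.61% with group only (632), 7.37% with the replicate block (1291), 11.3% with block and set (1980), 16.3% with limma voom (2859), 15.9% with 1 surrogate variable (2795), 10.6% with the mitochondrial share (1863), 9.81% without a count minimum (3687), 5.56% in set 1 (974), 12.4% in set 2 (2165) and 7.73% without controls 9 and 11 (1355). At an adjusted p under 0.05 there were 33 genes with the DESeq2 Wald test, 1 with limma voom, 1 without controls 9 and 11 and 1 without control 9, and 0 in the other fits.

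The log2 fold change turned negative in set 1 alone for Cnr1 (-0.16), Cnrip1 (-0.0089), Napepld (-0.11) and Abhd12 (-0.016). For Napepld it was also -0.0070 with the mitochondrial share and -0.018 without controls 9 and 11. For Abhd12 it was also -0.015 with group only, -0.0024 with at least 10 counts in every mouse, -0.029 with the replicate block, -0.022 with block and set and -0.0077 without controls 9 and 11, and from -0.0082 to 0.028 when leaving out each mouse.

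For the wider list, the 2 genes at an unadjusted p under 0.05 became 0 with group only, 4 with limma voom, 5 with the replicate block, 6 with block and set, 7 with 1 surrogate variable and 0 in set 2 alone (2 to 3 when leaving out each mouse), beside the shares of all genes given above. The 2 members whose effect differed between sets at an unadjusted p under 0.05 became 1 with the DESeq2 Wald test and 0 without controls 9 and 11. Of all 17524 genes, 1404 were past that threshold in the main fit, 1489 with the DESeq2 Wald test and 671 without these controls. The difference between groups in the log2 ratio of Faah to Napepld was -0.026 with labels exchanged over all mice, -0.050 for medians, -0.038 in paired differences (replicate block) and -0.083 in set 2, but 0.11 in set 1 and 0.048 without controls 9 and 11. For Mgll to Dagla it was -0.18, -0.34, -0.31 and -0.0060 in the same order, but 0.064 in set 1 and 0.043 without controls 9 and 11. With only the overall mean removed (neither group nor set means), 28 pairs of members were correlated at an adjusted p under 0.05. Of these, 15 were positive and 13 negative. Of the 36 pairs, 23 kept the sign they had with group and set means removed, and the others changed sign. Cnr1 and Cnrip1 then gave r = -0.07, Cnrip1 and Napepld -0.10, and Cnrip1 and Mgll 0.37. Signs were kept by Cnr1 with Napepld (0.90) and with Mgll (-0.82). On the TPM scale Cnr1 took position 5 and Faah position 6. The causes of these changes were not tested. The leaving out of controls 9 and 11 from the correlations was added after seeing the data.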
